A study of Mus musculus with 3 samples.

Results

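The cells described here are the 136 cells that the authors' deposited cluster file names cMoP, of 11132 cells in all. They were taken by that name alone, 39 of 4336 cells in the female library (0.899%, exact binomial 95% interval 0.640% to 1.23%) and 97 of 6796 in the male library (1.43%, interval 1.16% to 1.74%). Of the cMoP, Mono and MDP cells together, cMoP were 6.62% (4.75% to 8.94%) and 11.6% (9.52% to 13.99%). The intervals cover counting error only. The first pair overlaps at its ends and the second does not, and with 1 library of each sex the difference was not tested. The cells came from wild-type C57BL/6 mice and from a bone marrow population that the labels call modified GMP, the usual short form of granulocyte-monocyte progenitor. The hindlimb marrow had been enriched with beads against CD117, the stem cell factor receptor, before it was stained and sorted. The sources used here give neither the age of the mice, nor their number per library, nor the sort gates. Transcripts and the tags of 4 antibodies were counted in the same cells (CITE-seq), in 1 female and 1 male transcript library and 1 antibody library that pooled the sexes.

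A common monocyte progenitor, which is what the name cMoP stands for in the field, is a bone marrow cell that makes monocytes but no longer granulocytes or dendritic cells. It is placed between the monocyte-dendritic progenitor (MDP), which still yields both lineages, and the monocytes that leave the marrow. Among other traits, such cells carry the receptor for macrophage colony-stimulating factor (CSF1R) and surface Ly-6C and have lost FLT3. They depend on the transcription factors IRF8 and KLF4. This list is partial, and whether the cells described here meet the full definition was not tested. Their surface CD117 was low, as described further on. Here the cMoP cells were set beside the clusters that the authors named Mono (450 female and 602 male cells) and MDP (100 female and 136 male cells). The sources used here do not spell out these names.

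Levels are given in CPM, the unique molecular identifiers (UMIs) of a gene per 1000000 UMIs summed over the cells of a cluster in 1 library. The libraries held 91448433 (female) and 124967351 (male) UMIs in all. The cMoP sums held 839328 (female) and 1750855 (male) UMIs. The median cMoP cell had 21871 and 17929 UMIs, against 24366 and 20305 in Mono and 23413 and 18969 in MDP. Of the barcodes, 45 occurred in both libraries, and 0 of these were cMoP cells. The sources used here do not say how the clusters were made. They may rest on the RNA of these same cells, so RNA differences between clusters are described here with no p-value. The antibody counts are a separate readout of the same cells, but whether they entered the clustering is not given either.

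All 4 marker genes were found in cMoP, and each was above its level in Mono and MDP in both libraries. Csf1r (ENSMUSG00000024621, mm10 chromosome 18, 61105572 to 61131139), which encodes the receptor that monocytic cells need for growth and survival, stood at 98.9 CPM in the female library and at 69.7 CPM in the male one. In the pairs of values that follow, the female library comes first. In Mono it stood at 53.7 and 46.9 CPM and in MDP at 51.7 and 47.8 CPM. The cMoP cells were thus the highest of the 17 clusters in both libraries, by a mean log2 ratio to Mono of 0.72 ± 0.22 (SD, n = 2 libraries), which is under 2-fold. Ms4a6c, a membrane protein gene of the myeloid MS4A group, was also highest in cMoP, at 676 and 665 CPM against 409 and 460 CPM in Mono and 384 and 449 CPM in MDP.

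Ly86 encodes MD-1, the partner of the Toll-like receptor homologue CD180. It measured 237 CPM in female and 111 CPM in male cMoP cells, 146 and 87.6 CPM in Mono, and 127 and 72.0 CPM in MDP. The female library was the higher one in all 3 clusters, so for this gene the libraries differ by more than cMoP and Mono do within a library. Ly6c2, which encodes the Ly-6C antigen itself, separated cMoP from MDP but not from Mono. Its levels were 3753 and 4473 CPM in cMoP, 3696 and 3822 CPM in Mono, and 928 and 1046 CPM in MDP. The log2 ratio was 0.12 ± 0.14 against Mono and 2.06 ± 0.06 against MDP (SD, n = 2 libraries). Ly6c2 has the close paralog Ly6c1, and reads that the counting could not place between them may be missing. Gran-2 cells had as much Ly6c2 (3954 and 4073 CPM), whereas Csf1r was at 3.82 and 2.69 CPM there.

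**Figure D1:**
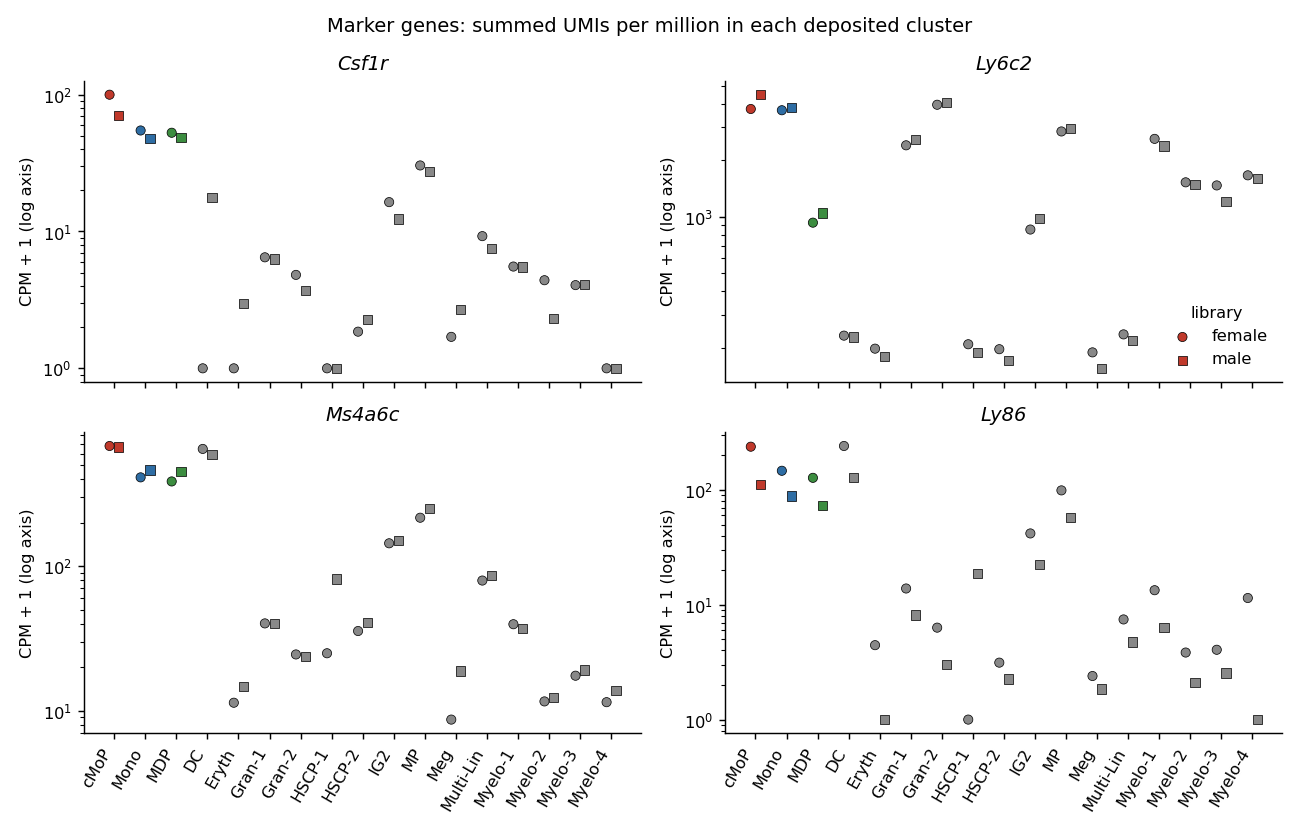
Level of the 4 marker genes in each of the 17 deposited clusters (CPM + 1, log axis), with a circle for the female and a square for the male library and cMoP in red, Mono in blue and MDP in green. Csf1r is highest in cMoP in both libraries (98.9 and 69.7 CPM), while Ly6c2 is about as high in Mono and Gran-2 as in cMoP.

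Single cells were compared after each was thinned to 4000 UMIs, and the shares of cells with a UMI set cMoP apart from Mono less clearly than the summed levels. Ly6c2 was found in 100% of cMoP cells of both libraries, with a median of 15 and 17 UMIs per thinned cell, against 14 and 15 in Mono and 3 in both libraries for MDP. It was also found in 48.8% and 62.8% of Eryth cells, with a median of 0 and 1 UMI. Ms4a6c was found in 94.9% (exact binomial interval 82.7% to 99.4%) of female and 90.7% (83.1% to 95.7%) of male cMoP cells, against 80.9% and 83.2% of Mono and 82% and 75% of MDP cells. In Eryth cells, which should lack it, these shares were 4.88% and 4.65%, at a median depth before thinning of 12993 and 10904 UMIs. Csf1r, a low transcript, was found in 25.6% of female and 19.6% of male cMoP cells and in 0% of the thinned Eryth cells of either library, with exact binomial upper bounds of 8.60% and 8.22%. Its Mono shares of 19.6% and 18.4% and MDP shares of 18% and 13.97% lay within the cMoP intervals (13% to 42.1% and 12.2% to 28.9%). Ly86 was found in 71.8% and 29.9% of cMoP cells, 45.6% and 27.2% of Mono, 33% and 22.8% of MDP and 2.44% and 0% of Eryth cells. The DC cluster held Ly86 in 45.5% and 54.5% of its 11 female and 22 male cells. Its thinned Ms4a6c median was 3 and 2.5 UMIs, against 2 in both libraries for cMoP. Csf1r was found in 0% and 9.09% of DC cells, and the Ly6c2 median there was 1 UMI in both libraries. Without thinning the Csf1r shares were 87.2% and 68.0% of cMoP cells, so most of the cells without a Csf1r UMI in the thinned data had one at full depth.

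Apart from granule genes, markers of other cell types were low, and many were at 0. The primary granule list summed to 13986 and 16254 CPM in cMoP and the secondary granule list to 10961 and 9209 CPM. Both lists are described further on. Of 25 antigen presentation and dendritic cell genes, 11 had no UMI in female cMoP cells and 8 had none in male ones, and the list summed to 468 and 500 CPM, against 66350 and 51729 CPM in the DC cluster. Cd74, the class II invariant chain, was at 5.96 and 4 CPM in cMoP and at 31770 and 25820 CPM in DC. Of 15 lymphoid genes 13 had no UMI in either library, and nearly all UMIs of the list came from Cd79b (42.9 and 36.0 CPM), which Mono held equally (42.9 and 37.8 CPM). Of 13 macrophage genes 7 were at 0 in each library, C1qb, C1qc and Mertk among them, and the list summed to 28.6 and 21.1 CPM, against 16.2 and 14.8 CPM in Mono and 39.7 and 52.9 CPM in Eryth. Of 16 erythroid and megakaryocyte genes 9 were at 0 in each library, with sums of 35.7 and 37.1 CPM against 5770 and 5481 CPM in Eryth. The mature neutrophil list, with 4 of 12 genes at 0 in each library, summed to 131 and 113 CPM in cMoP, 135 and 112 CPM in Mono and 142 and 88.4 CPM in MDP. The eosinophil, basophil and mast cell list summed to 78.6 and 56.5 CPM, against 128 and 63.8 CPM in Mono and 74.5 and 81.2 CPM in MDP. The part of these transcripts in the differences that follow was not tested.

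Against Mono, few genes differed by much. A gene was compared when the mean CPM of the 2 clusters was 20 or more in each library, and it was counted as higher or lower when the ratio passed 2-fold in the same direction in both libraries. Of 4148 genes, 25 were higher in cMoP (0.603%) and 5 were lower (0.121%), 30 in all (0.723%). The 25 were Ahnak, Aif1, Crip1, Ctss, Ifi27l2a, Ifi30, Irf5, Itgb7, Kctd14, Klf4, Klrb1f, Lgals3, Lsp1, Lyz2, Ms4a4c, Pld4, Plp2, Psap, S100a10, S100a4, S100a6, Samhd1, Slfn2, Tgfbi and Trem2. The 5 lower ones were Fkbp11, Nkg7, Pde4d, Prss57 and Spint2. Only 6 genes passed 4-fold in both libraries, all higher in cMoP. In the male library alone 41 genes were 2-fold higher and 6 lower, and in the female library alone 53 and 16. The counts thus rest on the demand for both libraries.

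Against MDP the distance was greater. Of 4233 genes compared, 87 were higher (2.06%) and 29 were lower (0.685%) in cMoP, 116 in all (2.74%). Of 4079 genes compared with both clusters, 24 were higher than in both (0.588%) and 1, Spint2, was lower than in both (0.0245%). Spint2, a serine protease inhibitor gene, was at 20.3 and 26.3 CPM in cMoP, 53.8 CPM in both libraries for Mono, and 72.0 and 62.8 CPM in MDP. The 24 are 24 of the 25 genes higher than in Mono (96.0%) and 27.6% of the 87. Both comparisons share the cMoP cells, so this overlap is partly built in. The exception was Kctd14, at 35.7 and 30.8 CPM in cMoP, 14.2 and 14.3 CPM in Mono and 15.9 and 17.2 CPM in MDP. For 71 of the 87 genes higher than in MDP, and for 22 of the 29 lower ones, the Mono level lay between those of MDP and cMoP in both libraries. These genes were chosen for a wide gap between cMoP and MDP, so a level in between is partly built in. The share was not computed over all genes compared or for any other cluster, so these counts cannot show a graded order of the clusters. Klf4 and Lyz2, described further on, are examples of genes with the Mono level in between, whereas S100a4 and Itgb7 were about equally low in Mono and MDP.

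**Figure D2:**
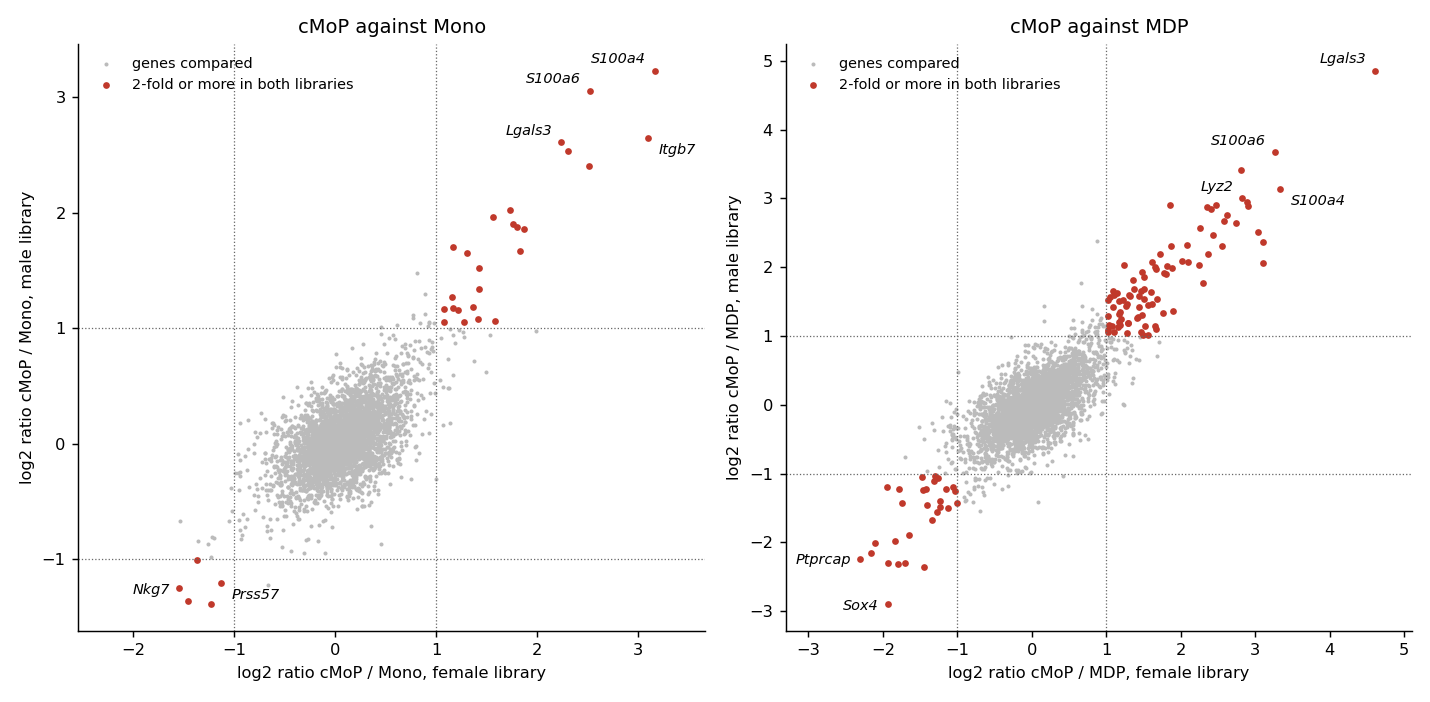
Log2 ratio of cMoP to Mono (left) and to MDP (right) for each gene compared, in the female library on the horizontal axis and the male library on the vertical axis, with dotted lines at 2-fold. Red points are the 30 genes of 4148 (left) and 116 of 4233 (right) past 2-fold in the same direction in both libraries; S100a4 lies farthest from Mono and Lgals3 farthest from MDP.

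Among the genes farthest above Mono were those of S100 calcium-binding proteins, an integrin chain and a lectin. S100a4, an S100 protein that binds the cytoskeleton, was at 189 and 179 CPM in cMoP (exact Poisson intervals 161 to 221 and 160 to 200), at 20.3 and 18.2 CPM in Mono, and at 17.9 and 19.5 CPM in MDP. Its log2 ratio to Mono was 3.20 ± 0.05 (SD, n = 2 libraries), a 9.17-fold difference, and the counting interval of the ratio was 7.58 to 11.5 in female and 8.28 to 11.7 in male cells. Its near neighbour on chromosome 3, S100a6, was at 322 and 417 CPM in cMoP, 55.3 and 49.2 CPM in Mono and 32.6 and 31.8 CPM in MDP. Itgb7, the integrin beta 7 chain that pairs with alpha 4 or alpha E for homing to gut tissue, was at 119 and 107 CPM in cMoP, 13.1 and 16.2 CPM in Mono and 13 and 19.9 CPM in MDP. Lgals3 encodes galectin-3, a sugar-binding lectin of macrophages, and it was graded, with 450 and 560 CPM in cMoP, 94.6 and 90.8 CPM in Mono and 17.5 and 18.4 CPM in MDP. In both libraries the cMoP levels of these 4 genes were far outside the Mono and MDP levels of either library.

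The promoters of these 4 genes are shown because they are the genes farthest above Mono at a mean of 50 CPM or more. Each is the 250 bases before the start site listed by RefSeq (build GRCm38.p6, the build of mm10), read 5′ to 3′ on the strand of the gene. Capitals mark CACCC or its reverse complement GGGTG, the short core that KLF-type factors bind.
S100a4 (chr3:90603520-90603769, plus strand): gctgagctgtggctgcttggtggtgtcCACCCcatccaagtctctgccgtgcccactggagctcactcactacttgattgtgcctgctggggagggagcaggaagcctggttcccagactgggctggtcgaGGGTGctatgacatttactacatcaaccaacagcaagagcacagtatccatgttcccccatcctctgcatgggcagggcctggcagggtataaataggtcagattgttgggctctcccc
Itgb7 (chr15:102231936-102232185, minus strand): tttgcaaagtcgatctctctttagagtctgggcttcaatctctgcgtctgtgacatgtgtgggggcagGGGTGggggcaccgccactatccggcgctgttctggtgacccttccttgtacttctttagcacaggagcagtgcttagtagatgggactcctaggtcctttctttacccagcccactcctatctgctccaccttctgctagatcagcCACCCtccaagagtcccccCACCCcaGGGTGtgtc
S100a6 (chr3:90612644-90612893, plus strand): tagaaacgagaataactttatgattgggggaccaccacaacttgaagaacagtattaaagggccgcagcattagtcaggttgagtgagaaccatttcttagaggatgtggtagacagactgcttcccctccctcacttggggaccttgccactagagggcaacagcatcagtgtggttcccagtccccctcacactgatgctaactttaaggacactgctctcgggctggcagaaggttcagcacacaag
Lgals3 (chr14:47373610-47373859, plus strand): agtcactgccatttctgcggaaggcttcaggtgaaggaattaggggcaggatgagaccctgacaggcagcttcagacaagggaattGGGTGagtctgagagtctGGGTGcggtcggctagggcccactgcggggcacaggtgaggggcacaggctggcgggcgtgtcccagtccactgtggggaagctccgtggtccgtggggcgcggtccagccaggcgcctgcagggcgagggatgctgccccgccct

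CACCC occurred 2 times in the S100a4 window, 4 times in that of Itgb7, 2 times in that of Lgals3 and not in that of S100a6. The second motif searched, GAGGAA or TTCCTC on the other strand, the core that PU.1-type ETS factors bind, was in none of the 4. Of 27025 gene promoters of this length, counting the first listed start of each gene, 51.3% held CACCC and 23.1% held GAGGAA. For the 3284 promoters of genes compared with both Mono and MDP, the shares were 54.7% and 22.7%. Among the 24 genes higher than in both Mono and MDP, 20 had a listed promoter, of which 16 held CACCC (80.0%) and 5 held GAGGAA (25%). A match of so short a motif is a string of letters, not a binding site, and no binding was measured.

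Among the transcription factors, Klf4 and Irf5 separated the cMoP cells most clearly. Klf4 (mm10 chromosome 4, 55527137 to 55532475), which monocyte formation needs, was at 191 and 192 CPM in cMoP, 84.9 and 79.4 CPM in Mono and 30.1 and 27.6 CPM in MDP. Its log2 ratio was 1.21 ± 0.08 against Mono and 2.69 ± 0.10 against MDP (SD, n = 2 libraries). Irf5, a factor of inflammatory cytokine genes, was at 73.9 and 64.0 CPM in cMoP, 28.0 and 27.6 CPM in Mono and 14.2 and 18.0 CPM in MDP. Irf8, the factor that opposes the granulocyte fate, was already high in all 3 clusters, at 754 and 727 CPM in cMoP, 555 and 602 CPM in Mono and 517 and 550 CPM in MDP. Cebpb, tied to the survival of Ly-6C-low monocytes, was at 523 and 540 CPM in cMoP, the highest of the 17 clusters, and passed 2-fold against MDP (121 and 127 CPM) but not against Mono (281 and 301 CPM).

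Of the 21 monocyte transcription regulators listed, 11 were compared with Mono, and 2 of these were higher and 0 lower. Over all genes 0.603% were higher. The median log2 ratio of the list was 0.21, beside 0.04 over all genes. Spi1, which encodes PU.1, was at 386 and 367 CPM in cMoP and 296 and 285 CPM in Mono. Of 12 regulators of the granulocyte branch 6 were compared, and 0 passed 2-fold in either comparison. In both libraries 3 of the 6 were above Mono, beside 39.8% of all genes. The median log2 ratio of the 6 to Mono was -0.01. Cebpa, at 83.4 and 84.5 CPM in cMoP and 104 and 91.7 CPM in Mono, and Cebpe, at 40.5 and 38.8 against 45.3 and 42.8 CPM, lay slightly below Mono. Gfi1 was too low to be compared, with 11 and 5 UMIs in cMoP.

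The wider list of monocyte genes was mostly above Mono. Of 35 listed genes, 31 were compared with Mono, and 13 were 2-fold higher, beside 0.603% of all genes, and 0 lower. Of the 31, 29 were above Mono in both libraries. The median log2 ratio was 1.05, beside 0.04 over all genes, of which 39.8% were above Mono in both libraries. Against MDP 17 of 30 were higher, beside 2.06% of all genes, and 0 lower, with a median of 1.18 beside -0.01. The list was drawn up with earlier results of these data known, so its direction is no independent evidence. It summed to 19567 and 20063 CPM in cMoP, 12220 and 12557 CPM in Mono and 16508 and 16016 CPM in Myelo-4. In the DC cluster the sum was higher than in cMoP, at 41800 and 46170 CPM, so a high sum was not particular to cMoP. Lyz2 (mm10 chromosome 10, 117277541 to 117282272), the myeloid lysozyme, was at 2709 and 3012 CPM in cMoP, 775 and 817 CPM in Mono and 381 and 373 CPM in MDP. Crip1, a small LIM domain protein gene, was at 886 and 1121 CPM in cMoP against 266 and 275 CPM in Mono. Tgfbi, a secreted matrix protein gene, was at 77.4 and 83.4 CPM against 22.1 and 21.6 CPM. Trem2, a lipid-sensing receptor of macrophages, was at 66.7 and 86.2 CPM in cMoP, 26.5 and 26.7 CPM in Mono and 8.14 and 10.3 CPM in MDP.

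Other genes tied to monocytes did not pass 2-fold against Mono in both libraries. Lgals1 was at 3278 and 3161 CPM in cMoP and at 2482 and 2646 CPM in Mono. Ccr2, the chemokine receptor by which monocytes leave the marrow, was at 214 and 168 CPM in cMoP and at 81.9 and 102 CPM in Mono. Its log2 ratio was 1.38 and 0.72, so it passed 2-fold in the female library only. Cx3cr1, the fractalkine receptor, was low, at 33.4 and 30.8 CPM in cMoP, 13.1 and 15.8 CPM in Mono and 25.2 and 22.6 CPM in MDP, and its log2 ratio to Mono was 1.28 and 0.92.

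**Figure D3:**
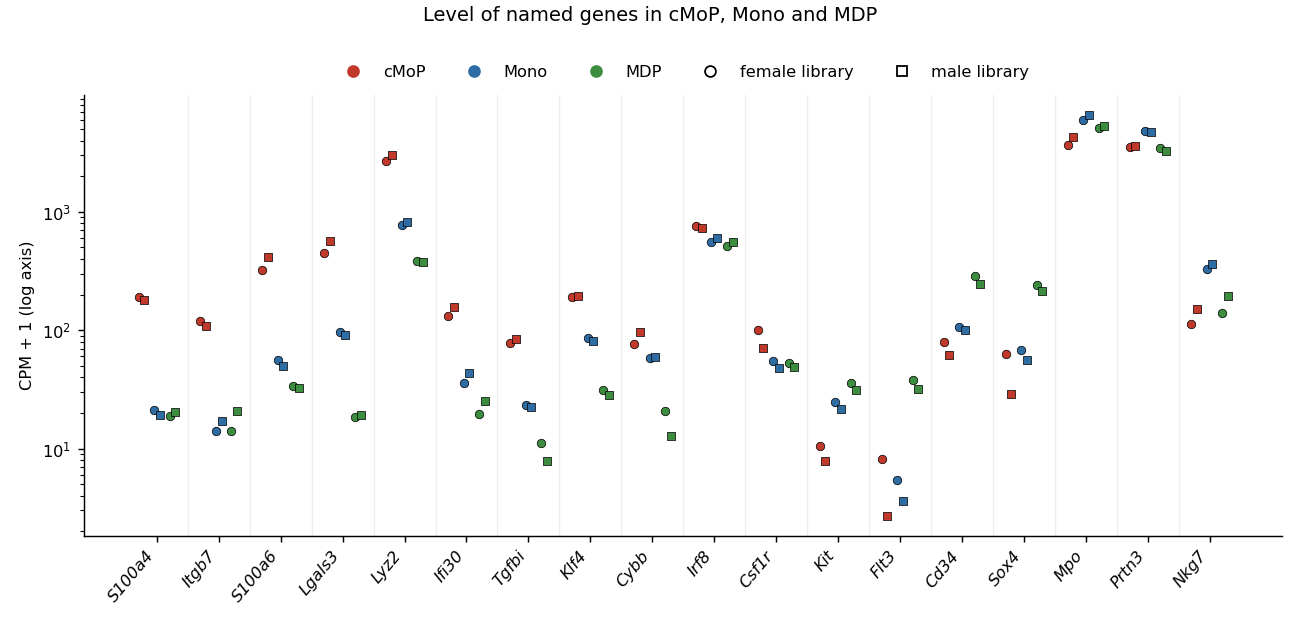
Level (CPM + 1, log axis) of 18 genes in cMoP (red), Mono (blue) and MDP (green), with a circle for the female and a square for the male library. From S100a4 to Tgfbi the red points lie above both other clusters, and for Kit, Cd34, Prtn3 and Nkg7 the Mono or MDP points are the highest.

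Genes of colony-stimulating factor signalling differed by less. Of 18 listed, 10 were compared, 0 passed 2-fold against Mono, and 9 of the 10 were above Mono in both libraries (median log2 ratio 0.46). Over all genes 39.8% were above Mono in both libraries, and the median was 0.04. Csf2ra, the alpha chain of the GM-CSF receptor, was at 96.5 and 132 CPM in cMoP, 63.8 and 69.7 CPM in Mono and 26.9 and 31.8 CPM in MDP, and it was the member past 2-fold against MDP. Of 24 lysosomal genes, 2 of 20 compared were higher than in Mono (Psap and Ctss) and 5 of 19 were higher than in MDP, beside 0.603% and 2.06% of all genes. The median log2 ratios were 0.41 and 0.60, beside 0.04 and -0.01 over all genes. Psap, the precursor of the saposins that help to degrade sphingolipids, was at 870 and 820 CPM in cMoP, 374 and 367 CPM in Mono and 283 and 297 CPM in MDP. Ctss, a protease of the antigen-processing compartment, was at 148 and 151 CPM in cMoP, 54.3 and 52.1 CPM in Mono and 60.6 and 73.1 CPM in MDP.

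All 6 phagocyte oxidase genes were above Mono and MDP in both libraries, as were 39.8% (Mono) and 35.9% (MDP) of all genes compared. None passed 2-fold against Mono, and Cybb and Cyba, which encode the membrane subunits, did so against MDP, beside 2.06% of all genes. Cybb was at 75.1 and 95.4 CPM in cMoP, 57.1 and 58.8 CPM in Mono and 19.9 and 11.9 CPM in MDP. The oxidase list summed to 1687 and 1928 CPM in cMoP. Its sums were higher in Gran-2 (2351 and 2468 CPM) and in Myelo-4 (5541 and 6048 CPM). Of the innate receptors, 1 of 12 compared was higher than in Mono (Trem2) and 5 of 11 were higher than in MDP (Clec4a2, Clec5a, Fcgr3, Fcer1g and Trem2), beside 0.603% and 2.06% of all genes. The medians of the list were 0.48 and 1.06. Its sum was 3932 and 4173 CPM in cMoP and higher in Myelo-4, at 7379 and 7113 CPM. Of 18 interferon response genes 5 were compared with Mono, and Ifi27l2a was the member past 2-fold, at 52.4 and 79.4 CPM in cMoP, 9.79 and 12.9 CPM in Mono and 19.1 and 32.5 CPM in MDP.

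Genes of the primary granule, the protease-laden granule of early neutrophils and monocytes, lay below Mono. All 12 were compared with Mono, and all 12 were below it in both libraries, 2 of them past 2-fold (Nkg7 and Prss57), with a median log2 ratio of -0.79. Over all genes 29.0% were below Mono in both libraries, and 0.121% were 2-fold lower. Nkg7, a granule membrane protein gene, was at 112 and 151 CPM in cMoP and at 327 and 361 CPM in Mono. Elane, neutrophil elastase, was at 2683 and 3833 CPM in cMoP, 6171 and 6770 CPM in Mono and 1840 and 1930 CPM in MDP, so the MDP level was the lowest. Mpo, myeloperoxidase, was at 3665 and 4274 CPM in cMoP, 6005 and 6627 CPM in Mono and 5064 and 5266 CPM in MDP. Mpo was also at 811 and 827 CPM in Eryth cells, which should lack it, and the cMoP levels were several times those levels. Against MDP 0 of 11 primary granule genes passed 2-fold.

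Against Mono, the list of secondary granule genes showed no common direction, with 7 of 15 above and 8 of 15 below in both libraries. Over all genes 39.8% were above and 29.0% below. The median log2 ratio of the list was -0.15. Lyz2 was its member past 2-fold against Mono. Against MDP, 12 of 15 were above and 0 below in both libraries, beside 35.9% and 36.9% of all genes. The median log2 ratio to MDP was 0.26, beside -0.01 over all genes. Hp, Lyz2 and Cybb, 3 of the 15, were 2-fold higher than in MDP, beside 2.06% of all genes. S100a8 was at 2918 and 2179 CPM in cMoP and at 2449 and 2978 CPM in Eryth, and Camp was at 992 and 639 CPM against 757 and 869.8 CPM in Eryth, so both were at the level found in a cluster that should lack them. In Myelo-4 cells S100a8 was at 219800 and 210300 CPM. Whether the cMoP values are background or expression was not tested.

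Genes of multipotent and early progenitors were lower in cMoP than in MDP. Of 24 listed, 6 were compared with MDP, 5 of them were 2-fold lower (Adgrg1, Cd27, Cd34, Myc and Sox4) and 0 higher, beside 0.685% of all genes 2-fold lower. The median log2 ratio was -2.01, beside -0.01 over all genes. Cd34, the sialomucin of early progenitors, was at 78.6 and 60.5 CPM in cMoP, 105 and 98.7 CPM in Mono and 284 and 242 CPM in MDP. Sox4, a transcription factor gene of immature cells, was at 62.0 and 28.0 CPM in cMoP, 66.5 and 54.8 CPM in Mono and 239 and 215 CPM in MDP. The anti-apoptotic gene Bcl2 was at 57.2 and 39.98 CPM in cMoP and at 146 and 131 CPM in MDP, and Ccnd2, a D-type cyclin gene, was at 62.0 and 45.1 CPM against 137 and 129 CPM. Against Mono 0 of 5 multipotent genes passed 2-fold.

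Flt3 and Kit were below the level at which genes were compared and are given as counts. Flt3, the receptor that marks MDP and dendritic progenitors, had 6 and 3 UMIs in cMoP, or 7.15 and 1.71 CPM, against 37.0 and 31.0 CPM in MDP. The ratio to MDP had a counting interval of 0.069 to 0.437 (female) and 0.011 to 0.167 (male). Kit, which encodes CD117, had 8 and 12 UMIs, or 9.53 and 6.85 CPM, against 23.6 and 20.8 CPM in Mono and 34.6 and 30.2 CPM in MDP.

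Transcripts of G2 and mitosis lay above Mono by a small margin. Of 19 genes of G2 and mitosis, 18 were above Mono in both libraries, beside 39.8% of all genes, and 0 passed 2-fold. Their median log2 ratio was 0.42, beside 0.04 over all genes. Top2a was at 250 and 215 CPM in cMoP and at 152 and 160 CPM in Mono, and Hmgb2 was at 2118 and 2094 CPM against 1515 and 1517 CPM. The list summed to 4018 and 4110 CPM in cMoP, 2982 and 2968 CPM in Mono and 2813 and 3313 CPM in MDP. Of the 18 genes of S phase, 9 were above and 5 below Mono in both libraries, with a median of 0.08. Over all genes 39.8% were above and 29.0% below.

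The remaining lists gave few calls. Over all genes 0.723% against Mono and 2.74% against MDP passed 2-fold in either direction. Of 19 chemokine and adhesion receptor genes 11 were compared with each cluster, and Itgb7 was the 1 past 2-fold in both comparisons (medians 0.25 and 0.25). Of 16 cell cycle regulators 11 were compared, with 0 past 2-fold against Mono and, against MDP, Cdkn2d higher and Ccnd2 lower. Cdkn2d, an inhibitor of the D-type cyclin kinases, was at 75.1 and 66.8 CPM in cMoP, 33.96 and 39.8 CPM in Mono and 36.6 and 31.0 CPM in MDP. Of 12 stress and immediate early genes compared, 0 passed 2-fold in either comparison, and 9 were above Mono in both libraries (median 0.31). Among all genes 39.8% were above Mono in both libraries. Fos, an immediate early gene that tissue handling is known to induce, was at 633 and 456 CPM in cMoP, 501 and 394 CPM in Mono and 422 and 315 CPM in MDP.

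Across the whole series, 236 genes at 50 CPM or more in cMoP in both libraries were also highest there in both. The comparison covered the 15 clusters with 20 or more cells per library (DC and HSCP-1 were left out). The genes at that level were not counted, so no share of genes is given. Of the 236 genes, 14 exceeded the next cluster by 2-fold in both libraries: S100a4, Ahnak, Ifi30, Tgfbi, Itgb7, Trem2, Irf5, Klrb1f, Klf4, Psap, Pld4, Aif1, Ms4a4c and Ctss. The next cluster was usually Mono. The DC cluster, with 11 female and 22 male cells, was higher still for 12 of the 14, for example Itgb7 at 510 and 637 CPM and Psap at 2876 and 3747 CPM. The exceptions were Trem2 and Klrb1f, listed at 0 in DC, where Klrb1f stood at 51.2 and 55.4 CPM in cMoP. Cd74, by contrast, was far lower in cMoP than in DC, as given above.

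Within the cluster, cells differed in how many of the genes that set it apart were found in them. Of the 24 genes higher than in both Mono and MDP, a cMoP cell thinned to 4000 UMIs held a median of 10 (quartiles 8.5 and 12.5) and 11 (9 and 13). The Mono median was 5 and the MDP median 4 in both libraries. Of the Mono cells, 6.67% and 2.49% reached the cMoP median. DC cells held more of these genes, with a median of 15 and 16, and 100% and 95.5% of DC cells reached the cMoP median. The 24 genes were chosen from these cells, so the separation is a description. The lowest cMoP cells held 4 of the 24 in both libraries, a value common in Mono, so the counts of the clusters overlapped. A gene can be missed in a thinned cell that expresses it. The part of such sampling in the spread and in the overlap was not tested.

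**Figure D4:**
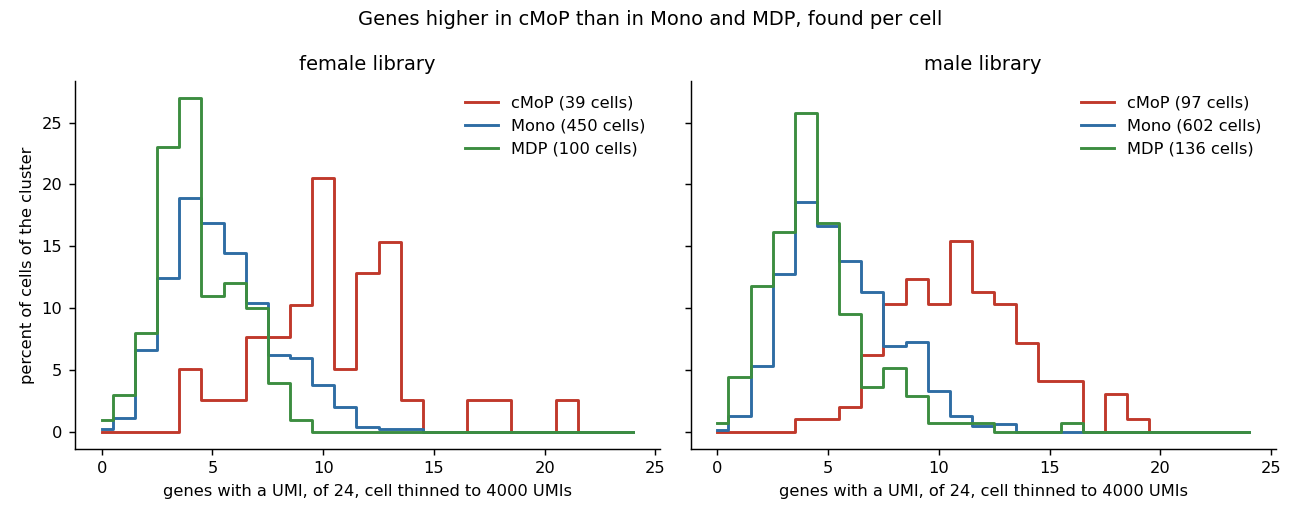
Percent of cells (vertical axis) by the number of the 24 genes higher than in Mono and MDP that had a UMI (horizontal axis), after each cell was thinned to 4000 UMIs, in the female (left) and male (right) library. The cMoP cells (red) centre on 10 and 11 genes and overlap with the upper part of the Mono cells (blue), which centre on 5.

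Lyz2 differed widely between cMoP cells. The median cMoP cell had 6 and 8 Lyz2 UMIs of 4000, against 2 in both libraries for Mono and 1 for MDP. The cMoP cells in the top 10% by Lyz2 held 36.5% and 37.9% of all Lyz2 UMIs of the cluster. There were 8 of 136 cMoP cells with more Lyz2 than any Mono cell of their library. In 3 of them Lyz2 reached 123, 138 and 255 UMIs of 4000, Mpo was at 4, 4 and 1 UMIs, and the cells had 9005, 5968 and 6907 UMIs in all, well below the median cMoP cell. Their Lgals3 counts were 12, 14 and 11, against an upper quartile of 2 and 3 in the cluster, and Cd74 and C1qa were at 0 in all 8 cells. Without these 8 cells, an exclusion chosen after seeing the data, the log2 ratio of Lyz2 was 1.48 against Mono and 2.55 against MDP, instead of 1.84 and 2.92, and 26 genes were 2-fold higher and 4 lower than in Mono. Ifi27l2a then no longer passed 2-fold against MDP, with a mean log2 ratio of 0.61 instead of 1.33.

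S100a4 was found in 33.3% (interval 19.1% to 50.2%) of female and 44.3% (34.2% to 54.8%) of male thinned cMoP cells, in 8% and 7.97% of Mono cells and in 0% of Eryth cells of either library. At full depth it was found in 84.6% and 76.3% of cMoP cells. Klf4 was found in 48.7% and 47.4% of thinned cMoP cells, 26.4% and 25.1% of Mono cells and 4.88% and 9.30% of Eryth cells. Lgals3 was found in 64.1% and 86.6% of cMoP cells, 27.1% and 25.4% of Mono cells and 4.88% and 9.30% of Eryth cells. The DC cluster, with 11 female and 22 male cells, held these genes too. S100a4 was found in 45.5% and 31.8% of DC cells, Klf4 in 81.8% and 50%, and Lgals3 in 100% in both libraries.

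The antibody counts separated cMoP from MDP and, more weakly, from Mono. CD117 was low on cMoP cells, in marrow that had been enriched for it. Its median count was 51 and 31, against 131 and 74 in Mono and 235 and 114 in MDP. It ranked 16th and 17th of the 17 clusters. Of the cMoP cells, 12.8% and 8.25% exceeded the Mono median of their library. Ly-6C was high, with a median of 21762 and 10509 counts, against 12083 and 6974.5 in Mono and 1087 and 846 in MDP, and it ranked 2nd of the 17 clusters in both libraries. All cMoP cells were above the MDP median of Ly-6C, and 64.1% and 71.1% were above the Mono median.

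Counts of CD11b, the integrin alpha M of myeloid cells, overlapped between cMoP and Mono. Its median was 200 and 135 counts in cMoP, 222 and 129.5 in Mono and 109 and 63.5 in MDP. Ly-6G, a neutrophil antigen, was at 65 and 57 counts in cMoP, the lowest of the 17 clusters, beside 75 and 62 in Mono and 70.5 and 58 in MDP. Its quartiles in the 3 clusters overlapped. Female medians were above male medians for all 4 antibodies in all 3 clusters. Both libraries shared 1 pooled antibody library, and the cause of that difference was not tested.

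**Figure D5:**
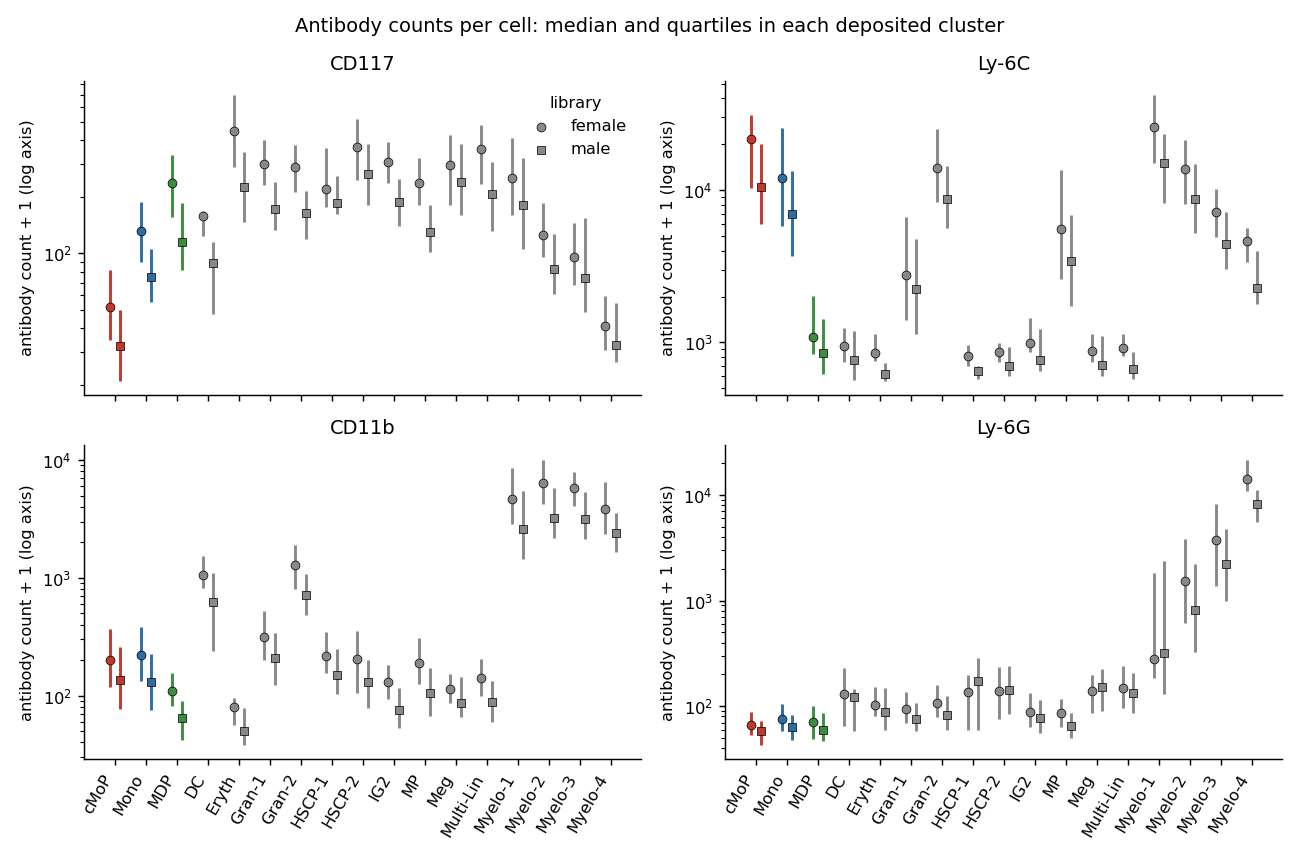
Antibody count per cell (count + 1, log axis) in the 17 clusters, with a circle (female) or square (male library) at the median and a line from the lower to the upper quartile. In cMoP (red), CD117 medians of 51 and 31 counts are among the lowest, Ly-6C medians of 21762 and 10509 are the 2nd highest, and CD11b medians of 200 and 135 are near those of Mono (blue).

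The transcripts behind 3 of the antibodies were too low to be compared. Itgam, which encodes CD11b, had 11 and 15 UMIs in cMoP, or 13.1 and 8.57 CPM, against 4.85 and 3.67 CPM in Mono and 2.44 and 3.45 CPM in MDP. Ly6g had 0 and 6 UMIs in cMoP. Kit, given above, was low in cMoP as was its protein.

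The deposited antibody scale gives each antibody as a log share of the 4 counts in the cell, and on it the cMoP cells differed from Mono by -1.32 ± 0.08 in CD117 (natural log units, SD, n = 2 libraries). The difference was -0.57 ± 0.08 in Ly-6G, -0.43 ± 0.03 in CD11b and 0.036 ± 0.003 in Ly-6C. Ly-6C made up a median of 98.1% and 97.9% of the 4 counts in cMoP, 96.0% and 95.8% in Mono and 71.8% and 77.7% in MDP. Shares within a cell are tied to each other, so a larger Ly-6C share means smaller shares of the rest. On this scale CD11b differed from MDP by -1.47 ± 0.25, whereas its median count was 1.83-fold and 2.13-fold that of MDP. The direction for CD11b thus depends on the scale, against MDP and, with centring within the cell, also against Mono (0.14). For Ly-6G against Mono it does so too, with a centred difference of 0.0032. With 2 libraries an exact permutation test cannot give a p below 0.5, so none was run. In cMoP cells the Ly-6C count and the Ly6c2 UMIs correlated with a Spearman rho of 0.392 (39 female cells) and 0.452 (97 male cells). In Mono rho was 0.382 and 0.464 and in MDP 0.543 and 0.554, so the correlation was not particular to cMoP. The rho of the Ly-6C count with the total UMIs of a cMoP cell was 0.040 and 0.252. These values describe cells that share a library.

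Female and male cMoP cells were set side by side with no test, since each sex is 1 library. Some differences were found in the neighbouring clusters too. Rpia, a pentose phosphate enzyme gene, was at 66.7 CPM in female and 16.6 CPM in male cMoP cells, at 64.1 and 20.9 CPM in Mono and at 57.0 and 18.0 CPM in MDP. Rpia was chosen after its values were seen.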

How the data were processed

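Per the labels, each mRNA library started from 10000 loaded cells (10x Genomics, 3′ v2 chemistry), and the male library had 689 and the female 676 as its number of reads in units of 1000000. Cell Ranger 2.1.0 and the build mm10 are listed in the submitters' processing notes. The authors deposited raw UMI counts for 28692 gene IDs, cluster names, antibody counts, and antibody values on a natural log (ln) scale. Those equal the log share of each antibody among the 4 in a cell, with 1 added to both count and total. The sources used here do not say how cells were called, clustered or cleared of doublets. No doublet caller and no further cell filter was applied.

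UMI counts were summed per cluster and library and scaled to CPM. Log2 ratios used CPM + 1. Nothing says that the 2 libraries came from several animals, so SDs measure the spread of these libraries. Intervals are 95%, exact Poisson for CPM, exact binomial for shares and ratios, and cover counting error only. Members and gene lists were chosen with earlier results of these data known. The genes named are 16 set ones, up to 4 of each list by level, the 8 largest ratios each way per comparison at a mean of 50 CPM or more, and up to 8 genes highest in cMoP. List members past 2-fold and at 0, genes counted against Mono, Cd74 and Rpia were named after their values were seen. On simulated counts edgeR and the fold rule recovered 4-fold changes, and the fold rule missed most changes of exactly 2-fold, its own threshold. The simulation drew summed counts from the profile of the comparison cluster, with no single cells and no clustering step. It therefore cannot check the calls made here. Gene coordinates were matched by symbol to GRCm38.p6. Alternatives were edgeR 4.0.16 and DESeq2 1.42.0 in R 4.3.3, other scalings, filters, pseudocounts and left-out cells or libraries. Other software was matplotlib 3.10.9, scipy 1.17.1, pandas 2.3.3, numpy 2.4.6 and Python 3.11.15.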

Additional observations from a re-analysis of the deposited data

How the results depend on the processing

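Requiring 2-fold in both libraries gave 25 higher and 5 lower genes against Mono and 87 and 29 against MDP. Leaving out either library gave 41 to 53 higher and 6 to 16 lower genes against Mono, and 128 to 139 and 61 to 76 against MDP. A filter of 50 CPM gave 14 and 2 against Mono and 46 and 11 against MDP. With no filter beyond 1 UMI there were 90 and 66 against Mono and 251 and 274 against MDP, where sparse genes make up the difference. Thinning cells to 4000 UMIs gave 38 and 13 against Mono and 49 lower against MDP, and it kept 21 of the 25 and 4 of the 5 genes against Mono and 67 of the 87 and 17 of the 29 against MDP. With edgeR (quasi-likelihood test, Benjamini-Hochberg adjusted p under 0.05 and 2-fold), 12 genes were lower than in Mono and 48 lower than in MDP, with the library as a block (covariate) or without it. DESeq2 gave 7 and 28. These p-values share the limit that the clusters may rest on the same RNA, so they support no call. The 47 named results were chosen for passing 2-fold in both libraries. Leaving out either library or lifting the filter was thus bound to count each of them, and the 50 CPM filter cannot change a ratio. Those settings are no check of these results. Of 517 recomputed log2 ratios of the 47, these settings included, 501 were again counted and 0 changed sign. Of the other 16, 13 were dropped by the 50 CPM filter with an unchanged ratio. Lamp1 and Nme4 against MDP were lost on thinning, and Ifi27l2a against MDP without the 8 cells highest in Lyz2.

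The antibody differences depend on the scale, in natural log units. Centring within the cell, the log of the count + 1 and the log ratio of medians gave, against Mono, -0.75, -0.90 and -0.91 for CD117, 0.14, -0.018 and -0.031 for CD11b, 0.61, 0.45 and 0.50 for Ly-6C, and 0.0032, -0.15 and -0.11 for Ly-6G. Against MDP they gave -1.82, -1.39 and -1.42 for CD117, 0.30, 0.73 and 0.68 for CD11b, 2.03, 2.46 and 2.76 for Ly-6C, and -0.51, -0.085 and -0.049 for Ly-6G. As a share of cMoP, Mono and MDP cells, cMoP were 6.62% (female) and 11.6% (male).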
